A study of Mus musculus with 8 samples.

Results

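Glypicans are heparan sulfate proteoglycans of the cell surface, and the 2 extracellular sulfatases Sulf1 and Sulf2 edit the chains they carry. The 6 genes Gpc1, Gpc3, Gpc4, Gpc6, Sulf1 and Sulf2 were described here across 8 liver tumors, out of 20151 named genes on the arrays. They were found as the experimental probes whose reference transcript belongs to one of these genes, which gave 7 probes of 55681, with 2 probes for Sulf1 and 1 for each other gene. The study measured RNA of hepatocellular carcinomas (HCC) from male miR-122 KO mice, labelled Cy5, against liver RNA of age-matched male mice with a floxed miR-122 gene, labelled Cy3, on 8 arrays of 2 colours. Tumor and control mice alike had a mixed background of C57BL/6J and 129S/Svj, and miR-122 is the most abundant microRNA of hepatocytes. The labels give neither the ages, nor the Cre used for the deletion, nor whether the controls were 8 single livers or pooled RNA. Every tumor was in the same dye, so a dye effect and a tumor effect cannot be told apart for any gene. The labels call the tumors biological replicates but do not name the animals, so the p-values measure the spread between these 8 arrays.

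Glypican core proteins are tied to the outer membrane by a lipid anchor, and their heparan sulfate chains hold growth factors such as Wnt, fibroblast growth factor (FGF), hedgehog and bone morphogenetic protein ligands near their receptors. Sulf1 and Sulf2 remove sulfate groups from position 6 of glucosamine in finished chains, which can free a bound Wnt ligand or weaken the binding of an FGF to its receptor. Glypican 3 is abundant in fetal liver, low in adult liver, and used as a tissue marker and therapy target in human HCC.

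The share of probes well above background was 38.5% to 51.9% in the tumor channel and 45.1% to 54.3% in the control channel, and no spot was saturated. Array 8 stood apart. Its mean correlation with the other arrays over tested genes was 0.528, against 0.630 to 0.741 for the others, and the upper quartile of its tumor signal was 213, against 378 to 606. Its control channel also had a summed signal of 76236 over 10 skeletal muscle markers, against 832 to 923 in the other controls. The same sum was 4319 in tumor 8, against 865 to 945 in the other tumors, so both channels of array 8 were above the rest. The part that muscle RNA had in any value of array 8 was not tested, and tumor 8 is given apart below. In bulk RNA, fewer cells of a type and less RNA per cell cannot be told apart.

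Log2 ratios are tumor over control after background correction and loess within each array. A gene was called higher or lower at an adjusted p under 0.05 (limma, Benjamini-Hochberg over all 14312 genes tested) and a log2 ratio of at least 1 in size. Among the 5 glypican and sulfatase genes bright enough to test, 1 gene, Gpc3, was called higher, and 9.54% of all tested genes were. None of the 5 was called lower by limma, against 5.94% of all tested genes, and at an unadjusted p under 0.05, which 59.5% of tested genes reached, none of them lay below 0. An adjusted p under 0.05 without regard to size was reached by Gpc3 and Sulf1, and by 53.8% of all tested genes. The members are described by their values on each array. No member had all 8 tumors above all 8 controls or below them, against 8.32% of tested genes with every tumor above and 8.47% with every tumor below. Nor had any of the 5 the same sign on all 8 arrays, as 33.8% of tested genes did.

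**Figure D1:**
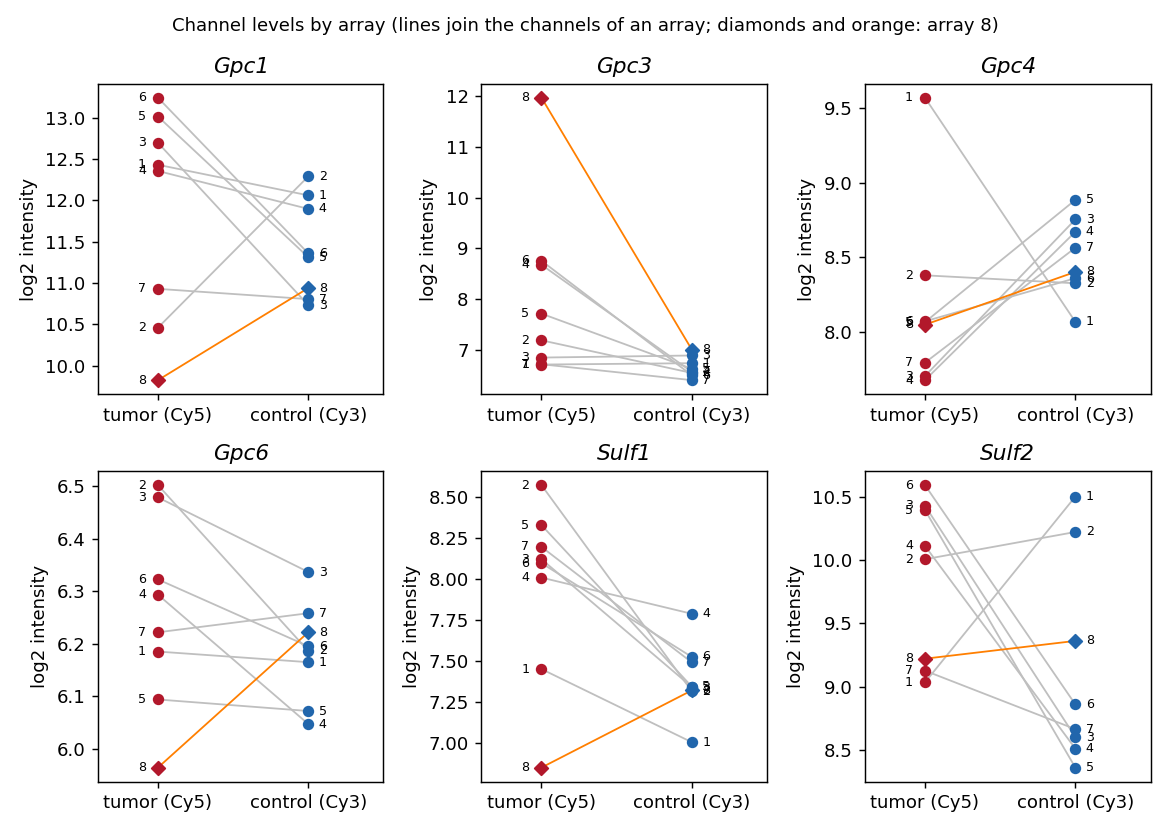
Channel levels (log2 intensity after loess and Aquantile normalization) of the 6 genes, with tumors left and control livers right in each panel, 1 point per array and the points of array 8 marked apart. Gpc3 in tumor 8 stands at 11.96 and the controls between 6.41 and 7.01, while Gpc1 and Sulf2 spread in both channels.

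Gpc3 was the only member called, and it was high in some tumors rather than in all. Its tumor levels were 6.72, 7.19, 6.85, 8.68, 7.72, 8.76, 6.72 and 11.96 (log2 intensity, arrays 1 to 8), and its control levels were 6.74, 6.55, 6.89, 6.57, 6.63, 6.51, 6.41 and 7.01. Tumors 2, 4, 5, 6 and 8 lay above the highest control, and tumors 1, 3 and 7 lay within the range of the controls. The log2 ratios were -0.03, 0.64, -0.04, 2.10, 1.08, 2.25, 0.31 and 4.95, so that tumors 1 and 3 equalled their controls to within 0.04 and tumor 8 was 31.0-fold higher than its control. The mean was 1.41 ± 1.68 (SD, n = 8 arrays, 2.66-fold, limma adjusted p = 0.0395), and an exact two-sided sign-flip test gave p = 0.03125. Tumors averaged 8.08 ± 1.77 and controls 6.67 ± 0.20, and 0.957% of tested genes had a larger SD of the ratio than Gpc3.

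Without tumor 8 the mean log2 ratio of Gpc3 was 0.90 ± 0.95 (n = 7, limma adjusted p = 0.0319), which is under the size a call needs, and the exact sign-flip p was 0.0625. The call also ended without tumor 2, 4, 5 or 6, where the mean stayed at 1.52, 1.31, 1.46 and 1.29 and the adjusted p was 0.0511, 0.0859, 0.0644 and 0.0879. It ended with all probes tested (1.41, adjusted p = 0.0663) and within each row of the slide. Row 1, with 4 arrays, gave 0.67 (adjusted p = 0.207), and row 2, with the other 4, gave 2.15 (adjusted p = 0.0969). The processed signals of the scanner software gave 2.01 (adjusted p = 0.0338). With no background subtraction the mean was 1.57, and with an offset of 16 it was 1.72. Gpc3 was well above background in all tumors and controls, but the controls were dim (mean level 6.67). The size of its rise therefore depends on the processing.

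Gpc3 and Gpc4 lie next to each other on the X chromosome in the RefSeq annotation, both on the minus strand. Their start regions are shown because these neighbours had unlike ratios in the same tumors. RefSeq's promoter table (GRCm38.p6) held 3 of the 6 genes. Each line gives the 250 bases before the start, 5′ to 3′, with the GC box GGGCGG in capitals where it lies on either strand.
Gpc3 chrX:52613975-52614224: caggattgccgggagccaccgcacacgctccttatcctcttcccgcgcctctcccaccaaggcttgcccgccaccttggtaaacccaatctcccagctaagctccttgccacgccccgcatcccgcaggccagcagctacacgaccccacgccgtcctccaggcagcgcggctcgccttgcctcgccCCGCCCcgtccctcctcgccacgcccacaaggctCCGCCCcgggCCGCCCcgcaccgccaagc
Gpc4 chrX:52164924-52165173: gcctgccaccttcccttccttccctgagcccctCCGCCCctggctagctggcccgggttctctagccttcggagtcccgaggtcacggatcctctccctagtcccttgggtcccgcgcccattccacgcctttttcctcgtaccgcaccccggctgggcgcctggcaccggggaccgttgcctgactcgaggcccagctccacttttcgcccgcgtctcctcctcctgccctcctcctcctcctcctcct
The Gpc3 window held 3 GC boxes and 1 CCAAT, at 71.6% G and C, and the Gpc4 window held 1 GC box and no CCAAT, at 68.4%. Of 32851 promoter windows of this length, 32.74% held a GC box and 33.85% a CCAAT on either strand, and the median G and C content was 52.4%. Neither window held TATAAA, which 12.37% of windows did. Letter matches describe the window and do not show binding.

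Gpc4, the glypican next to Gpc3, was lower than its control on 6 of 8 arrays without passing the test. Its tumor levels were 9.57, 8.38, 7.70, 7.67, 8.06, 8.07, 7.79 and 8.05, against 8.07, 8.32, 8.75, 8.67, 8.88, 8.36, 8.56 and 8.40 in the controls. Tumor 1 was above every control, and 5 tumors (3, 4, 5, 7 and 8) were below every control. The ratios were 1.51, 0.05, -1.05, -0.997, -0.82, -0.29, -0.77 and -0.35, with a mean of -0.34 ± 0.84 (SD, n = 8, limma adjusted p = 0.290, exact sign-flip p = 0.297). With each array left out in turn, the mean ran from -0.60 to -0.24 (limma adjusted p = 0.00947 to 0.498). The lowest of these means and p was without array 1. Without arrays 1 and 2, a choice made after seeing the data, the mean was -0.71 (adjusted p = 0.00456). All of these were under the size of a call. Tumors 1 and 8 thus gave the highest ratios of different genes of this pair, Gpc4 in tumor 1 and Gpc3 in tumor 8. Without tumor 8 the mean of Gpc4 was -0.34 ± 0.91 (n = 7, exact sign-flip p = 0.344).

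Gpc1, a glypican of wide tissue expression that is known as a co-receptor for FGF, split the tumors in both directions. It had 12.43, 10.46, 12.70, 12.36, 13.02, 13.24, 10.93 and 9.83 in the tumors, against 12.06, 12.29, 10.73, 11.90, 11.31, 11.36, 10.81 and 10.94 in the controls. Tumors 1, 3, 4, 5 and 6 lay above every control, tumors 2 and 8 below every control, and tumor 7 between. The ratios of 0.37, -1.83, 1.97, 0.46, 1.70, 1.88, 0.12 and -1.12 averaged 0.45 ± 1.40 (SD, n = 8, limma adjusted p = 0.399, exact sign-flip p = 0.398). Among all tested genes 1.95% had a larger SD. The controls of arrays 1 and 2 were the highest 2 for Gpc1, and without tumor 8 the mean was 0.67 ± 1.35 (exact sign-flip p = 0.172, n = 7).

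Gpc6, a glypican best known from skeletal growth, was near the detection limit. It was well above background in 2 tumors and 1 control and was not tested. Its tumor levels were 5.96 to 6.50 with a median of 6.26, against 6.05 to 6.34 with a median of 6.19 in the controls, and its log2 ratios ran from -0.26 to 0.32. Values this close to background do not measure a difference. Of the other glypicans, Gpc2 was well above background in 0 tumors and 4 controls, which leaves its difference unmeasured, and Gpc5 was too dim to test.

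Sulf1, the first of the heparan sulfate sulfatases, was above its control in 7 tumors, by less than the size a call needs. Its tumor levels were 7.45, 8.57, 8.12, 8.01, 8.33, 8.09, 8.19 and 6.85, against 7.01, 7.32, 7.34, 7.79, 7.34, 7.52, 7.49 and 7.32 in the controls. Tumors 2 to 7 lay above every control, tumor 1 within their range and tumor 8 below it. The ratios of 0.44, 1.25, 0.78, 0.22, 0.98, 0.57, 0.70 and -0.47 averaged 0.56 ± 0.52 (SD, n = 8, 1.47-fold, limma adjusted p = 0.0187, exact sign-flip p = 0.03125). Without tumor 8 the mean was 0.71 ± 0.34 and all 7 ratios were above 0 (exact sign-flip p = 0.015625, the smallest that 7 arrays can give). The adjusted p was 0.266 in row 2 of the slide alone (mean 0.45) and 0.0821 without arrays 1 and 2 (0.46). The second Sulf1 probe gave 0.34 ± 0.33 (limma adjusted p = 0.0313 over probes), again below 0 in tumor 8 alone (-0.27). It was well above background in 7 tumors and 3 controls, so it was tested through the tumor channel alone. Its p rests partly on control values at background and adds no separate test of Sulf1. Neither probe was called, and 6.63% of all tested probes were called higher and 4.66% lower.

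Sulf1 is made mainly by mesenchymal cells, so markers of stellate cells and fibroblasts are given beside it. Of 11 tested markers 6 were higher, among them the collagen genes Col1a1 (log2 ratio 3.65 ± 1.20, SD, n = 8), Col1a2 (3.00 ± 1.21) and Col3a1 (2.47 ± 1.43), and none was called lower. Others went below 0 without the size of a call, among them Dcn (-0.80, adjusted p = 0.0205), Lrat (-0.76, adjusted p = 0.0577) and Reln (-0.58, adjusted p = 0.0191). The summed intensity of the 11 was 52956 to 98701 in tumors 1 to 7 and 17707 in tumor 8, against 36031 to 48586 in the controls. Tumor 8 was the lowest for both the marker sum and Sulf1. By ratio, array 2 was the highest for both the marker mean (1.99) and Sulf1 (1.25). Array 1 had the second highest mean marker ratio (1.61), but the second lowest Sulf1 ratio of arrays 1 to 7 (0.44). By level, tumor 1 was the lowest of tumors 1 to 7 for both the marker sum (52956) and Sulf1 (7.45). The highest marker sum was in tumor 7 (98701) and the highest Sulf1 level in tumor 2 (8.57). Bile duct markers were also higher at 3 of 6 genes, with a summed intensity of 2785 to 100994 in the tumors and 1732 to 6851 in the controls. Spp1 weighs heavily in this sum of linear intensities. Its mean log2 level in the tumors was 14.49, against 11.09 for Cldn7 and 9.91 for Sox9, the other called markers. The part of either cell type in the Sulf1 values was not tested.

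Sulf2, the sulfatase that has been linked to Gpc3 and Wnt signalling in human HCC, was higher in most tumors but not called. Its tumor levels were 9.03, 10.01, 10.43, 10.11, 10.40, 10.59, 9.13 and 9.22, against 10.50, 10.22, 8.60, 8.51, 8.36, 8.86, 8.66 and 9.36 in the controls. The controls of arrays 1 and 2 were above the other 6 controls, and 1 tumor was above every control. The ratios were -1.47, -0.22, 1.83, 1.60, 2.03, 1.73, 0.46 and -0.14, with a mean of 0.73 ± 1.27 (SD, n = 8, limma adjusted p = 0.136, exact sign-flip p = 0.125). With each array left out in turn, the mean ran from 0.54 to 1.04 (limma adjusted p = 0.0236 to 0.288). It passed only without array 1 (1.04, limma adjusted p = 0.0236). Without arrays 1 and 2, a choice made after seeing these controls, it was 1.25 (adjusted p = 0.0127). With arrays 1 and 2 averaged, in case they shared control RNA, which the labels do not say, it was 0.95 (adjusted p = 0.0533).

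**Figure D2:**
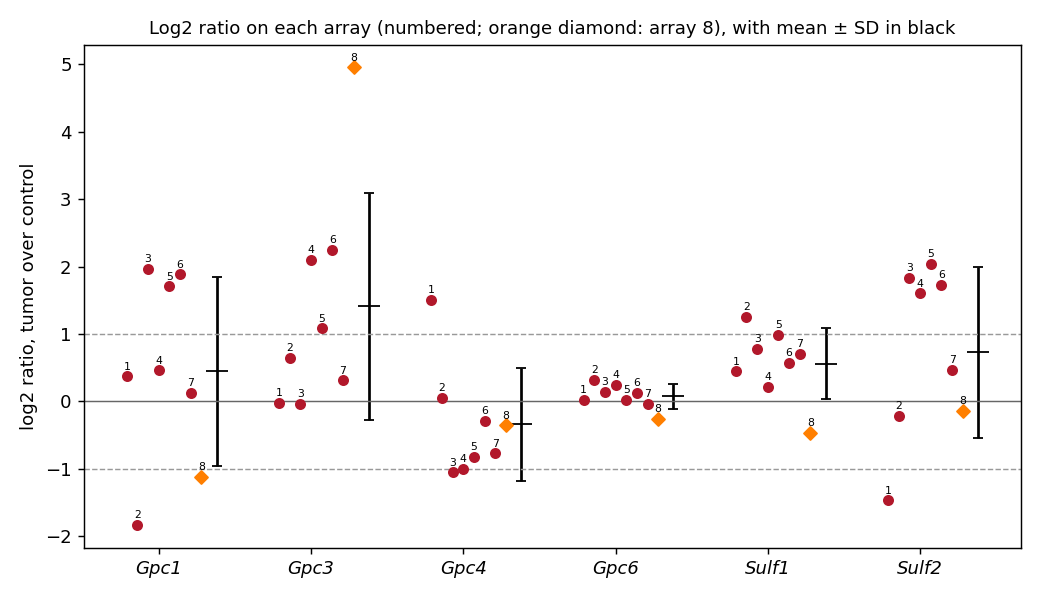
Log2 ratio of tumor over control for each of the 6 genes on arrays 1 to 8, with the mean and SD. Tumors 3, 5 and 6 were above 1.5 for both Gpc1 and Sulf2, while tumor 8 was at 4.95 for Gpc3 and below 0 for the other 5 genes.

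Tumors 3, 5 and 6 had ratios of 1.97, 1.70 and 1.88 for Gpc1 and 1.83, 2.03 and 1.73 for Sulf2. In tumor 2 both were below 0, at -1.83 for Gpc1 and -0.22 for Sulf2. Tumor 1 differed, with 0.37 for Gpc1 and -1.47 for Sulf2. Differences between members on the same arrays were compared for 4 pairs. Gpc3 exceeded Gpc4 by 1.75 ± 2.01 on the log2 ratio scale (SD, n = 8, above 0 on 7 arrays, exact sign-flip p = 0.0391, adjusted p = 0.156 over the 4 pairs). Gpc1 minus Gpc3 was -0.96 ± 2.48 (exact adjusted p = 0.479), Gpc1 minus Gpc4 was 0.79 ± 1.84 (exact adjusted p = 0.479), and Sulf1 minus Sulf2 was -0.17 ± 1.27 (exact adjusted p = 0.703). No pair passed after adjustment, and 8 arrays allow an unadjusted p of 0.0078125 at the lowest. With SDs of 1.27 to 2.48, these data do not show that members of a pair act alike.

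**Figure D3:**
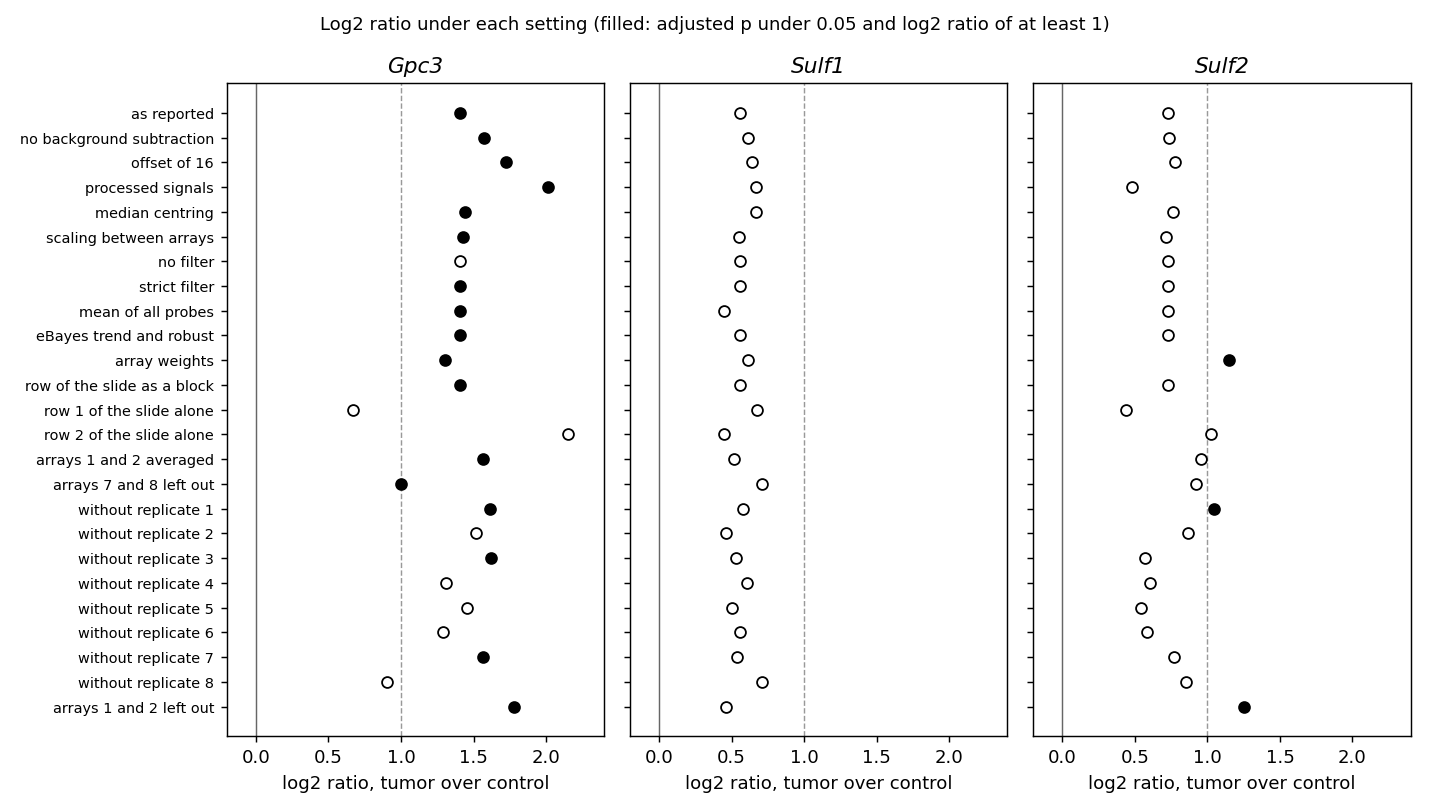
Mean log2 ratio (tumor over control) of Gpc3, Sulf1 and Sulf2 under each alternative of processing or of arrays used, with filled points where the gene passed the call. Gpc3 ran from 0.67 to 2.15 and Sulf2 from 0.44 to 1.25 under the alternatives other than single arrays left out.

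Around Gpc3 and Gpc4 on the X chromosome, no tested neighbour was called. Of 11 listed neighbours, 7 were tested, with 0 calls by limma. Their median log2 ratio was 0.06, against 0.03 over all tested genes. Of the 7, 2 had an unadjusted p under 0.05 (Hs6st2 and Phf6), against 59.5% of all tested genes. Hs6st2 was tested through the tumor channel alone. Ccdc160, the next gene beyond Gpc3, had a tumor level of 9.78 in tumor 8, against 6.78 to 7.07 in the controls, and 6.36 to 6.83 in the other tumors. Its ratio was 2.71 on array 8 and -0.53 to -0.08 on the other 7 (mean 0.06 ± 1.08, limma adjusted p = 0.887). Phf6, a chromatin protein gene one step further, had -0.78 on array 8 and a mean of -0.43 ± 0.20 (adjusted p = 0.00228). Hprt, a purine salvage enzyme gene, had 0.14 on array 8 and -0.10 ± 0.32 overall. Tumor 8 was thus high at the adjacent genes Gpc3 and Ccdc160 and not at Gpc4 on one side (-0.35) or Phf6 on the other.

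**Figure D4:**
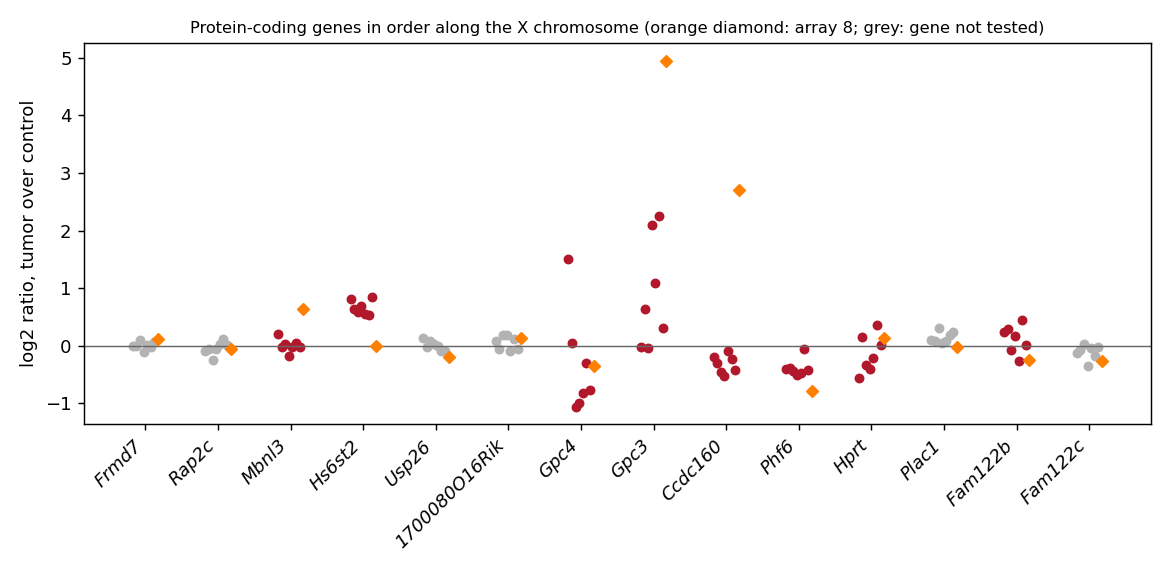
Log2 ratio of tumor over control for the genes around Gpc4 and Gpc3, in their order along the X chromosome (not to distance), 1 point per array with array 8 marked apart. Array 8 stands at 4.95 for Gpc3 and 2.71 for Ccdc160.

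Hs6st2, in the same region, adds the 6-O-sulfates that the Sulf enzymes remove. It was well above background in 7 tumors and in no control, so it was tested through the tumor channel alone and the controls give only a bound. The tumor mean was at least 1.47-fold higher, while tumor 8 was level with its control (log2 ratio -0.0088). The measured means were 6.70 ± 0.25 in the tumors and 6.12 ± 0.05 in the controls (SD, n = 8). The log2 ratio was 0.58 ± 0.26 (limma adjusted p = 0.00109), under the size of a call. That p rests on control values at background and does not test the bound. The processed signals gave 3.00 (adjusted p = 2.9e-04) and would call Hs6st2 higher, with the same limit.

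Gpc3 belongs, with Afp and H19, to the fetal liver genes that mouse liver shuts down after birth. Zhx2 is a known repressor of these genes in mice, and Zbtb20 is a known repressor of Afp. Afp, alpha-fetoprotein, rose in all 8 tumors, with log2 ratios of 4.79 to 7.28 and a mean of 6.50 ± 0.92 (SD, n = 8, 90.3-fold, limma adjusted p = 4.28e-07). H19, a fetal noncoding RNA, rose by 2.75 ± 0.15 (adjusted p = 2.39e-08). Tumors 1 and 3, whose Gpc3 ratios were -0.03 and -0.04, were high for both. Zhx2 had 0.03 ± 0.19 (adjusted p = 0.813) and Zbtb20 -0.16 ± 0.53 (adjusted p = 0.446). Zbtb20 was at -0.83 and -1.03 on arrays 7 and 8, and between -0.25 and 0.30 on the others. Gpc3 had 0.31 on array 7 and 4.95 on array 8, and a link between them was not tested. Zhx2 was dim, with mean levels of 6.48 in tumors and 6.45 in controls, and was well above background in 6 tumors. An absence of change in Zhx2 is therefore not established.

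**Figure D5:**
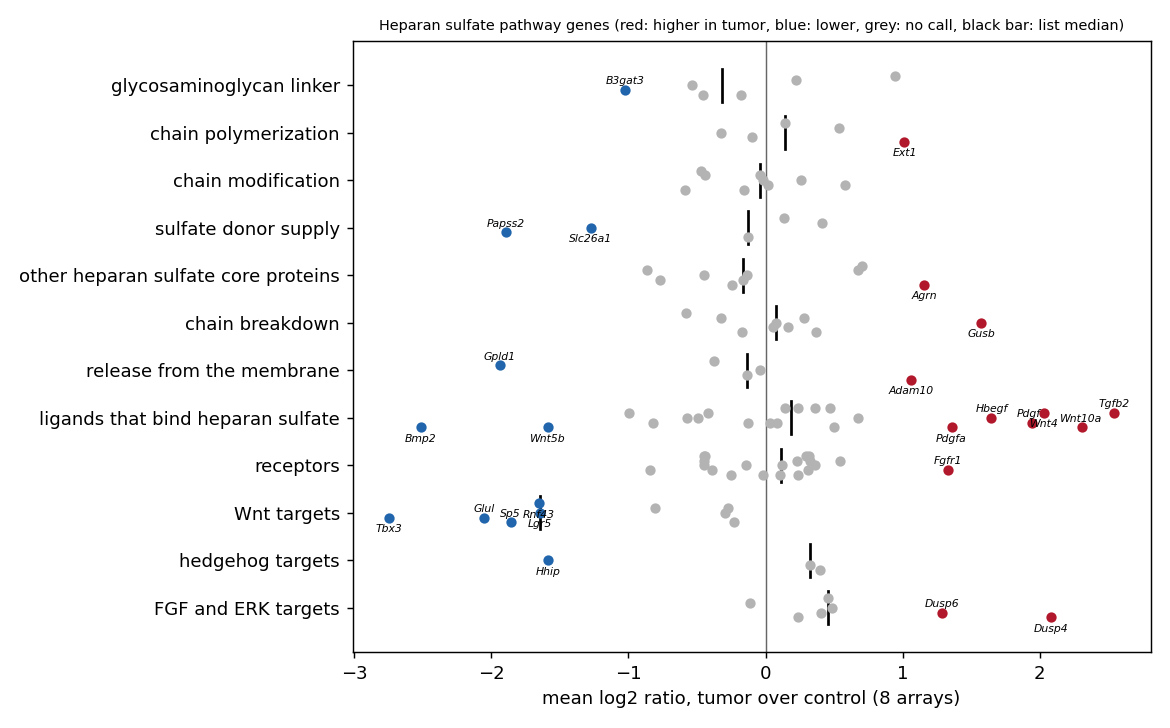
Mean log2 ratio (tumor over control, 8 arrays) of each tested gene of 12 lists on heparan sulfate, its ligands and their targets, with red points for genes called higher, blue for lower, grey for no call and a black bar at the list median. The Wnt target list has its median at -1.65 and the other lists between -0.32 and 0.46.

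The 12 lists held 135 genes that make, carry, break or release heparan sulfate, ligands and receptors that bind it, and targets of those ligands. Of these, 13 were called higher (11.9% of those tested, against 9.54% of all genes), 12 lower (11.01%, against 5.94%) and 84 were tested without a call. Target genes gave 8 of the 25 calls. The median log2 ratio of those tested was -0.02. In the linker list, which starts a chain on a core protein, B3gat3 fell by 1.03 on the log2 scale (SD 0.31, n = 8, limma adjusted p = 7.53e-05), 1 of 6 tested, and its size dropped just under 1 without array 1 (-0.97) or 2 (-0.96). Of 5 polymerization genes Ext1, a subunit of the chain polymerase, rose by 1.01 ± 0.71 (adjusted p = 0.00375), and lost the call without array 1 (0.89), 4 (0.96), 5 (0.93) or 6 (0.95). None of the 9 tested chain modification genes was called by limma. An unadjusted p under 0.05 was reached by 3 of 9 (Glce, Hs3st3a1 and Hs6st2), against 59.5% of all tested genes. Hs6st2 was tested through the tumor channel alone. Hs3st3a1, well above background in 2 tumors and 8 controls, was tested through the control channel alone. The p of each of these genes rests partly on values at background.

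Of 5 tested genes that supply sulfate for the chains, 2 were lower. Papss2, which makes the sulfate donor, fell by 1.89 on the log2 scale (SD 0.97, limma adjusted p = 6.19e-04). Slc26a1, a sulfate transporter of the hepatocyte surface, fell by 1.28 (SD 0.85, adjusted p = 0.00284), with tumor 7 alone above its control (0.60). Hepatocyte markers were also lower. Of 7 markers, 2 were called lower (median of the 7, -0.85), and their summed intensity was 377512 to 592455 in the tumors, against 721100 to 1002620 in the controls. The part of hepatocyte content in these values was not tested.

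Among the other heparan sulfate core proteins Agrn, the basement membrane proteoglycan agrin, rose by 1.16 ± 0.92 (SD, n = 8, limma adjusted p = 0.00690), the only call among 9 tested. It fell under the size of a call without array 3 (0.99), and the mean of all its probes gave 0.54. Sdc1, the main syndecan of hepatocytes, had 0.70 (adjusted p = 0.0426), Hspg2, perlecan, 0.67, Sdc3 -0.77 and Tgfbr3, betaglycan, -0.87, all under the size of a call.

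Of the 5 genes for release from the membrane, 1 was higher and 1 lower. Gpld1, a secreted phospholipase that cuts the lipid anchor of glypicans, fell by 1.94 on the log2 scale (SD 0.63, limma adjusted p = 5.34e-05), and its smallest fall was in tumor 8 (-0.46). Adam10, a sheddase, rose by 1.06 ± 0.45 (adjusted p = 3.12e-04) and was at 0.96 without array 3. Notum, which removes the lipid of Wnt and was once reported to cut glypican anchors, had -0.38 ± 0.35 (adjusted p = 0.0264). In chain breakdown Gusb, a lysosomal enzyme that also acts on heparan sulfate, rose by 1.57 ± 0.89 (adjusted p = 0.00112), 1 of 9 tested, and Hpse, heparanase, had -0.58.

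Among 22 tested ligands that bind heparan sulfate, 6 were higher and 2 lower. Tgfb2 rose by 2.54 ± 1.00 (limma adjusted p = 1.29e-04) and Wnt10a by 2.30 ± 1.45 (adjusted p = 0.00188, well above background in 5 controls). Bmp2 fell by 2.51 on the log2 scale (SD 0.38, adjusted p = 1.25e-06). The other calls were Wnt4, Pdgfb, Hbegf and Pdgfa (2.03, 1.94, 1.65 and 1.36) and Wnt5b (-1.59). Of 20 receptors Fgfr1 alone was called, with a rise of 1.33 ± 0.85 (adjusted p = 0.00219), and the mean of all its probes gave 0.70.

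Targets of the pathways that glypicans tune went in different directions. Of 9 tested Wnt targets, 5 were lower and none higher, led by Tbx3 (-2.75 ± 1.63), the glutamine synthetase gene Glul (-2.05 ± 1.31) and Sp5 (-1.86 ± 1.30), with SDs over 8 arrays, and Rnf43 and Lgr5 were the other 2. Sp5 was well above background in 4 tumors, and the processed signals gave -3.50 for it. Of 7 FGF and ERK targets, the phosphatase genes Dusp4 (2.08 ± 0.78, limma adjusted p = 1.02e-04) and Dusp6 (1.29 ± 0.56, adjusted p = 3.11e-04) were higher. Of 3 hedgehog targets Hhip, which binds hedgehog ligands, was lower (-1.59 ± 0.37, adjusted p = 1.34e-05). It too was well above background in 4 tumors, and the processed signals gave -3.31, so the size of its fall depends on the processing. No list was tested as a set, and list medians are descriptions.

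The genes most like each member were taken by the root mean square difference in log2 ratio over the 8 arrays. The 11379 candidates were the tested genes well above background in all 8 tumors. For Gpc3 they were Ccn2 (0.917), Malat1 (0.930) and Eppk1 (0.976), whose highest ratio was also on array 8 (3.75, 3.28 and 3.66). For Gpc1 they were Ggct (0.624), Slc16a13 (0.638) and Tmem263 (0.771), and for Sulf2 F3 (0.531), Cd36 (0.647) and Gpx4 (0.674). Closer matches were found for Gpc4 with Adh1 (0.375), Epb41l5 (0.405) and Cpsf4 (0.435), and for Sulf1 with Rbm34 (0.214), E2f3 (0.224) and Wnk1 (0.241). Gpc6, at background, was nearest to Apc2 (0.0956), Lrrc27 (0.108) and Pla2g4a (0.108), whose ratios were also near 0. This measure rewards small ratios, so its size cannot be compared between members.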

How the data were processed

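The deposited scanner files give, per spot, median signal and background as intensity, and processed signals, which were dye-normalized after background subtraction per the file headers. The deposited log10 ratio of red over green was used only through those processed signals. The software was Agilent Feature Extraction 10.9, per the submitters' processing notes (10.9.1.1 per the file headers). All 8 arrays lay on 1 slide.

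Median signals were corrected by normexp (offset 50) and normalized by loess, control and outlier spots at weight 0 (limma 3.58.1 in R 4.3.3; the package data.table, version 1.17.8). Spots of a probe were averaged. Values are on the log2 scale computed from the deposited intensities. A probe counted as well above background on an array if at least 1 in 2 of its spots were so flagged, and was tested if this held on at least 4 arrays in 1 channel (29290 probes). A gene took its brightest tested probe. Mean ratios were tested against 0 by lmFit and eBayes. Probes were named through RefSeq's GRCm38.p6 annotation. A gene dim in all controls has a bound: its tumor mean against the higher, per array, of its own control signal and the dimmest signal that any probe flagged above background had. The precision is limited by the number of arrays.

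The members and the gene lists were chosen with earlier results of these data known. Genes named are the members, Afp, H19, Zhx2, Zbtb20, Notum, the X neighbours, up to 3 called genes of largest ratio per list and 3 genes most like each member; other genes given, among them Sdc1, Sdc3, Hspg2, Tgfbr3, Hpse, Dcn, Lrat, Reln, Glce, Hs3st3a1, Gpc2, Gpc5, Wnt4, Pdgfb, Hbegf, Pdgfa, Wnt5b, Rnf43 and Lgr5, were chosen after their values were seen. The procedure was tested on simulated ratios with the real genes' SDs. Alternatives were other background corrections, centring, scaling, filters, probe choice, variance models, array weights, slide rows and arrays left out.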

Additional observations from a re-analysis of the deposited data

Results flagged for a closer look

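Over 80 sets of 8 values, the highest or lowest array stood far from the rest in 14. Chance alone does so in about 1 set in 20, but the sets share arrays and genes, so the 14 are not separate observations. Of these, 2 were Gpc3 on array 8, with a log2 ratio of 4.95 and a tumor level of 11.96. A further 2 were Gpc4 on array 1, with a ratio of 1.51 and a tumor level of 9.57. Array 8 was also apart for Ccdc160 (2.71), Hs6st2 (-0.0088), Gpld1 (-0.46) and Spp1 (1.08). It was apart for Ccn2 (3.75), Malat1 (3.28), Eppk1 (3.66) and Wnk1 (-0.47), but these were picked for ratios like those of Gpc3 or Sulf1, so array 8 standing out in them follows from that choice and adds nothing. The remaining 2 were Slc26a1 on array 7 (0.60) and Bmp2 on array 3 (-3.35).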

How the results depend on the processing

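Gpc1, Gpc4 and Sulf1, none of them called, kept their direction and stayed uncalled under all 16 alternatives. Gpc3 stayed above 0 throughout but lost its call with no filter (1.41, adjusted p = 0.0663) and in row 1 (0.67) and row 2 (2.15) of the slide alone. Sulf2 became called with array weights (1.15, adjusted p = 0.0174) and with arrays 1 and 2 left out (1.25). With the processed signals 1533 genes were lower and Gpc6 was at 0.57, and in row 2 alone 849 genes were higher, on 4 arrays. With each array left out in turn, genes called higher ran from 1293 to 1533 and lower from 836 to 902. The ranges were 0.23 to 0.77 for Gpc1, 0.90 to 1.62 for Gpc3, -0.60 to -0.24 for Gpc4, 0.04 to 0.12 for Gpc6, 0.46 to 0.71 for Sulf1 and 0.54 to 1.04 for Sulf2. The causes were not tested.

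Sign changes of single genes and pairs occurred only in values not called. With the processed signals these were Sulf1 minus Sulf2 (0.19), Zhx2 (-0.18), Mbnl3 (-0.14), Ccdc160 (-0.36), Fam122b (-0.25), Slc16a13 (-0.0705), Apc2 (-0.24) and Lrrc27 (-0.14). Array weights turned Ccdc160 (-0.20) and Mospd1 (-0.0705), and an offset of 16 turned Ccdc160 (-0.0078). In row 1 alone they were Sulf1 minus Sulf2 (0.24), Zbtb20 (0.12), Ccdc160 (-0.37), Mospd1 (-0.24) and Adh1 (0.12). In row 2 alone they were Zhx2 (-0.0619), Hprt (0.0798), Fam122b (-0.0047), Apc2 (-0.0646) and Pla2g4a (-0.0358). Without arrays 7 and 8 they were Zbtb20 (0.10), Ccdc160 (-0.30) and Mospd1 (-0.11), and without arrays 1 and 2 Zhx2 (-0.0029) and Pla2g4a (-0.0032). With single arrays left out, Zhx2 ran from -0.0149 to 0.0553, Mospd1 from -0.0478 to 0.12, Adh1 from -0.26 to 0.0135, Ccdc160 from -0.32 to 0.15 and Sulf1 minus Sulf2 from -0.47 to 0.0039. Of 1415 repeats for the other named genes, 1333 kept direction and call, 44 lost a call and 6 gained one. Of 576 repeats of the pathway list counts, 537 stayed within 1.5 times. Medians of 8 of the 22 lists changed sign in 18 of 527 repeats. That of the X neighbours was -0.14 with the processed signals, -0.24 in row 1 alone and -0.11 without arrays 7 and 8, that of the receptors -0.0551 with the processed signals, and that of the hedgehog targets -0.63 under the strict filter. No further block by replicate was possible because each ratio already pairs a tumor with the control on its array. Low signal leaves differences of Gpc6 and Gpc2 unmeasured, gives Hs6st2 a bound and makes the sizes for Gpc3, Hhip, Sp5 and Zhx2 uncertain.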
